A study of Mus musculus with 2 samples.

Results

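Semaphorins, plexins and neuropilins were followed across the cell classes of mouse knee synovium, the soft inner layer of the joint capsule. The members were all genes whose symbol is Sema3 to Sema7 with a letter from a to g, Plxna to Plxnd with or without a number, Nrp1 or Nrp2, given at least 10 unique molecular identifiers (UMIs, counted copies of an RNA) over both libraries. The rule found 31 of the 32285 genes in the matrices: 20 semaphorins, 9 plexins and 2 neuropilins. All 31 genes with such a symbol reached the minimum. The fewest UMIs over both libraries belonged to Sema5b, with 54, and the most to Nrp1, with 31852.

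The series compared synovium of control mice with that of mice labelled MMS, a term that the labels do not spell out. Both groups were wild type, and each was 1 library from 20 pooled knees, so that no animal can be told from another. The MMS mice carry the label D14, while no day is stated for the controls, and the age of the mice is not given in the sources used here. With 1 library per group there is no test: every ratio below compares 2 libraries, and the 95% intervals hold only the error of counting.

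The control library held 84900876 UMIs in 8810 barcodes and the MMS library 85597195 UMIs in 5286, and 6891 and 3765 cells were kept. The libraries shared 6 barcodes, of which 4 were among the cells kept. The labels call the cells goblet cells, a mucus-secreting epithelial type. Of 8 goblet cell markers, 2 or more were detected together in 0 of the cells kept, which allows a share of up to 0.0435% of control and 0.0797% of MMS cells. Clusters were therefore named from marker genes of synovial cell types, and the 4 classes compared were fibroblast-like (3212 control and 1346 MMS cells), macrophage or monocyte-like (1196 and 550), endothelial-like (1960 and 707) and mural-like cells (146 and 182), the last being the contractile cells around vessels. A level is given as CPM, the UMIs of a gene per 1000000 UMIs of the class in that library. Median UMIs per cell were higher in MMS in each of these classes, at 26608 against 13739.5 in fibroblast-like cells.

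Semaphorins are guidance cues, first studied in growing axons and later in vessels, immune cells and bone. The class 3 proteins are secreted and mostly act through a neuropilin, which binds the ligand, paired with a plexin, which carries the signal into the cell; classes 4, 5 and 6 span the membrane and class 7 is held on it by a lipid anchor. Neuropilins also bind vascular endothelial growth factors, so that both families of ligand meet at the same receptor on endothelium.

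Upstream sequence was read for the members on which the results turn: Sema3a and Sema5a, a pair of ligands both concentrated in lining-like fibroblasts, and Plxnb2, the receptor with the greatest ratio in endothelial-like cells. RefSeq promoters on GRCm38.p6 matched 26 of the 31 members by symbol, Sema3b, Sema3f, Sema6a, Plxna1 and Plxna4 being those not matched. Each line below holds the 250 bases before a RefSeq start, 5′ to 3′ on the gene's strand. Capitals mark a GC box, GGGCGG on either strand.
Sema3a (chr5:13396534-13396783, plus strand): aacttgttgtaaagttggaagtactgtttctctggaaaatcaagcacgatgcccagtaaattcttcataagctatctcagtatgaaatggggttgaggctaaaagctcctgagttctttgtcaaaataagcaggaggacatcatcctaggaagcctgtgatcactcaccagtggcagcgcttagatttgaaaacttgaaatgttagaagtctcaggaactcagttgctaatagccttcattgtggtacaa
Sema5a (chr15:32244563-32244812, plus strand): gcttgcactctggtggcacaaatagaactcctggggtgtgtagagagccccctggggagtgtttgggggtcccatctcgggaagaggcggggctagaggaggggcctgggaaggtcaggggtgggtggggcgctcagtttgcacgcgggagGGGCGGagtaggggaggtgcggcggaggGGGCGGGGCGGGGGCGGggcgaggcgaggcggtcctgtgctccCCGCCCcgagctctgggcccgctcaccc
Plxnb2, outer start (chr15:89180789-89181038, minus strand): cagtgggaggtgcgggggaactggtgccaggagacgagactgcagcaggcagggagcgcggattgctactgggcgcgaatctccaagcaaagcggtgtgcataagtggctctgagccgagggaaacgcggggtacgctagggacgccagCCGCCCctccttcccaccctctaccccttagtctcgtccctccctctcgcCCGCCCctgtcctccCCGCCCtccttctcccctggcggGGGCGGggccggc
Plxnb2, inner start (chr15:89173952-89174201, minus strand): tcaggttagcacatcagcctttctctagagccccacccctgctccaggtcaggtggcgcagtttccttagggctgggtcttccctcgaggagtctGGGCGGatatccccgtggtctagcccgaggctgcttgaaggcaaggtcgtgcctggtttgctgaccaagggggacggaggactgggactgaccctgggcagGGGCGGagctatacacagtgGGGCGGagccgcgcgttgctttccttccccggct
The Sema3a window had no GC box, 2 CpG dinucleotides and a GC content of 40.8%. The Sema5a window had 5 GC boxes, 17 CpG and a GC content of 72.0%. The outer and inner Plxnb2 windows had 4 and 3 GC boxes, 20 and 13 CpG and GC contents of 69.2% and 63.6%. The medians over all 32851 RefSeq windows were 6.0 CpG and 52.4%. The Sema3a start lies inside the gene model of GENCODE M21, which runs over chr5:13125414-13602565, and the inner Plxnb2 start lies inside its gene at chr15:89155549-89180788.

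Of 37 windows of matched members, 27 held a GC box, a share of 73.0% against 32.7% of all windows. CCAAT was found in 7 windows (18.9% against 33.8%). The AP-1 motif TGANTCA was found in 3 (8.11% against 6.75%), the TEAD motif CATTCC in 3 (8.11% against 12.6%) and the E-box CACGTG in 2 (5.41% against 6.02%). TATAAA was found in 0 windows of members and in 12.4% of all. Both strands were searched for each motif, none of the other 5 motifs was found in the 4 windows printed, and a match describes letters and not a bound site.

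By level, most members separated by class. Endothelial-like cells had the highest CPM of 11 of the 31 members in the control library and of 12 in the MMS library, among the classes with at least 50 cells. In 8 and 9 of these cases the counting interval stood apart from that of the next class. Fibroblast-like cells led for 7 members in the control library. In the MMS library tenocyte-like cells, which numbered 389 in MMS and 2 in control, led for 6 members that include Sema3b, Sema3c, Sema3d and Sema3e. They carry tendon markers but also fibroblast markers, and Acan, a cartilage marker, was among their leading genes. Their 10 fibroblast markers summed to 80460 CPM in MMS, against 41690 CPM in MMS fibroblast-like cells. These cells are not part of the fibroblast-like class compared below.

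**Figure D1:**
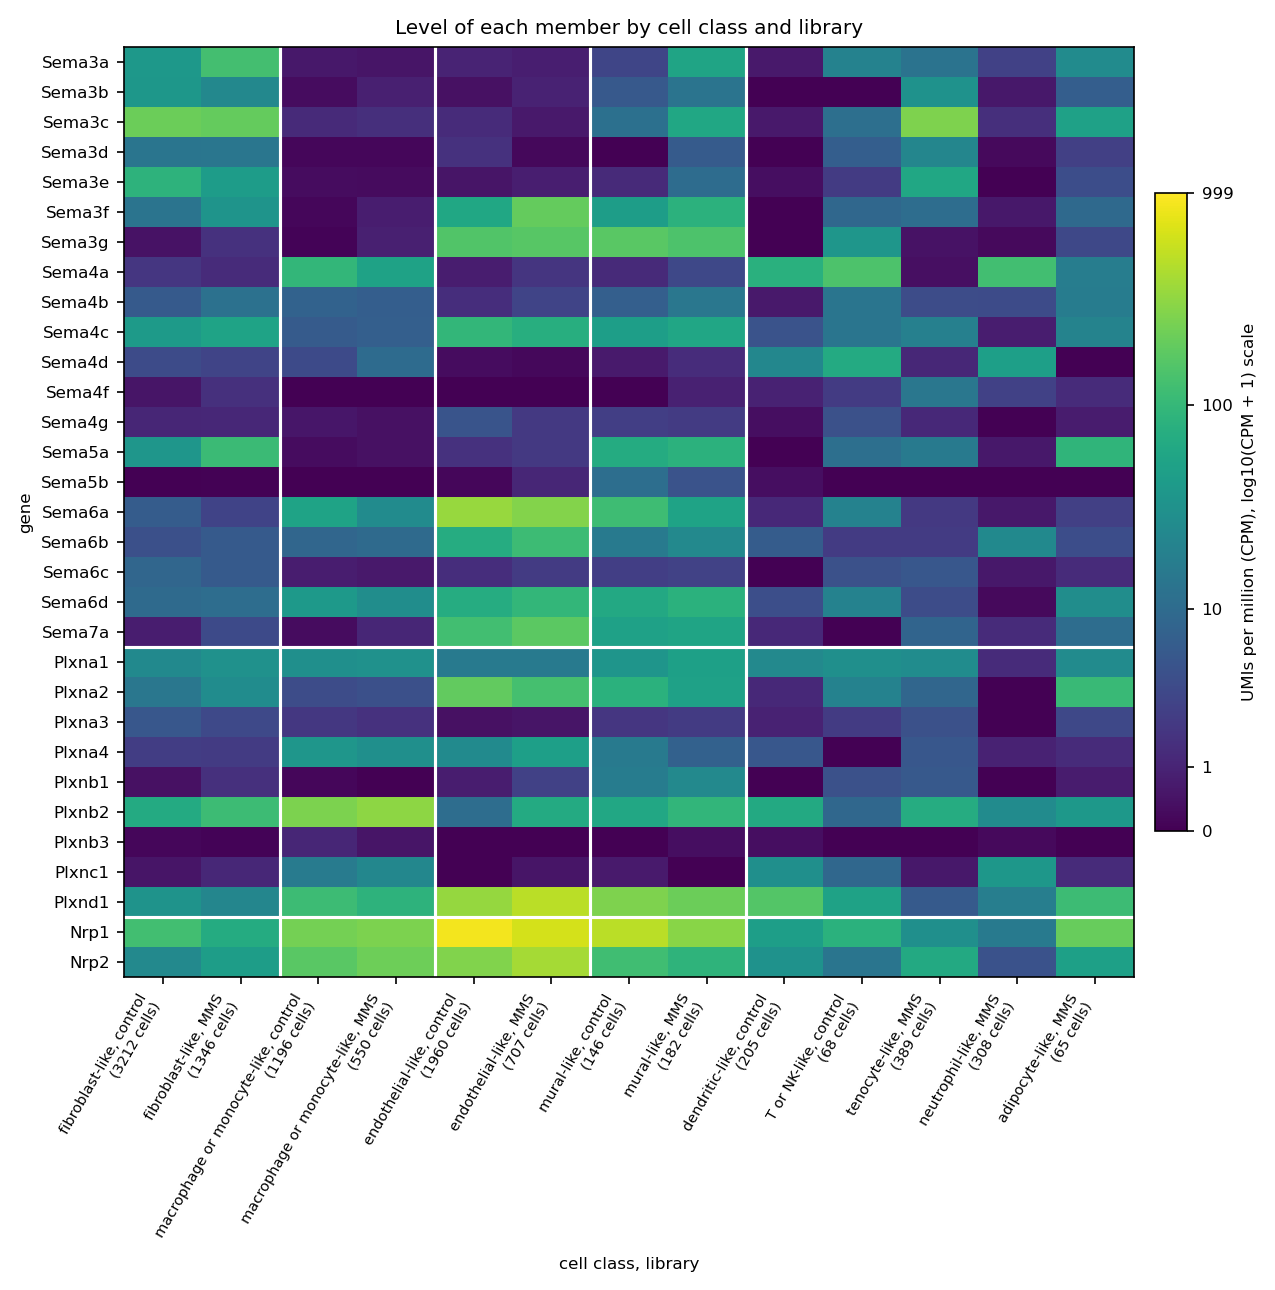
Level of the 31 members (rows; white lines part semaphorins, plexins and neuropilins) in each class and library with at least 50 cells (columns, with cell numbers). Color is CPM on a log10(CPM + 1) scale; Nrp1 and Plxnd1 are brightest in the endothelial-like columns, Sema3c and Sema3e in the fibroblast-like and tenocyte-like ones, and Plxnb2 in the macrophage or monocyte-like ones.

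In fibroblast-like cells the ligands Sema3a and Sema5a were higher in the MMS library than in the control library. Sema3f, Sema7a, Sema3g, Sema4f, Sema4b, Plxnb1 and Plxnc1 were also 2-fold or more higher, several of them at a few CPM, and Sema6a was lower. Sema3c differed little between the libraries. A member counts as higher or lower here when its ratio reaches 2-fold, among genes with at least 50 UMIs over both libraries in the class.

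Of 29 members with at least 50 UMIs in fibroblast-like cells, 9 were higher in MMS, where 6.92% of all 13426 such genes were, and 1 was lower, where 7.77% of all were. By family these were 7 of 19 semaphorins, 2 of 8 plexins and neither neuropilin. The median log2 ratio was 0.32 over the 29 members and 0.04 over all genes. Sema5b and Plxnb3 were below the minimum. Plxna2 (log2 0.95) and Sema3e (-0.95) fell just short of 2-fold and Sema4b, at 1.001, just reached it.

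Sema3a, a secreted axon repellent that acts through Nrp1 and is also known from bone, was at 39.2 CPM in the control library and 127 CPM in the MMS library. Its log2 ratio was 1.69 (interval 1.61 to 1.77). Sema5a, a membrane semaphorin with thrombospondin repeats, was at 36.6 and 111 CPM, a log2 ratio of 1.60 (1.52 to 1.68). Sema3f, a ligand of Nrp2, was at 13.2 and 35.0 CPM, a log2 ratio of 1.41 (1.27 to 1.55). For these 3 ligands the intervals lie wholly above 2-fold.

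The remaining members past 2-fold had low levels. Sema7a, the lipid-anchored ligand of Plxnc1, was at 0.753 and 3.68 CPM (log2 2.29, 1.75 to 2.86), and Plxnb1, a receptor of Sema4d, at 0.377 and 1.63 CPM (2.12, 1.33 to 2.97). Sema3g, which acts through Nrp2, was at 0.419 and 1.69 CPM (2.01, 1.26 to 2.82), and Sema4f, a class 4 membrane semaphorin, at 0.460 and 1.63 CPM (1.83, 1.10 to 2.60). Plxnc1 was at 0.481 and 1.13 CPM (1.24, 0.47 to 2.04). These 5 rest on between 18 and 36 UMIs in the control library. Sema3g and Sema7a were at 152 and 124 CPM in control endothelial-like cells, while the summed level of 8 endothelial markers in fibroblast-like cells was 73.3 CPM in the control and 72.1 CPM in the MMS library. The part of free RNA in these low levels was not tested. Sema4b, a class 4 semaphorin, was at 6.03 and 12.1 CPM (1.001, 0.78 to 1.22), and its interval spans the 2-fold line.

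Sema6a, a membrane ligand of Plxna2 and Plxna4, was at 6.47 CPM in the control library and 2.99 in the MMS library, a log2 ratio of -1.11 (-1.44 to -0.79). Sema3c, which signals through neuropilins with Plxnd1, was at 208 and 196 CPM (-0.09, -0.13 to -0.04). Nrp1, the shared receptor of Sema3a and vascular endothelial growth factor A, was at 121 and 68.2 CPM (-0.83, -0.90 to -0.76). Sema3e, which binds Plxnd1 without needing a neuropilin, was at 85.9 and 44.4 CPM (-0.95, -1.04 to -0.87). Plxnb2, a receptor of class 4 semaphorins, was at 67.4 and 113 CPM (0.75, 0.68 to 0.82), and Nrp2 at 24.95 and 45.7 CPM (0.87, 0.77 to 0.98). The secreted ligands of Nrp1 and Plxnd1 therefore did not share a direction in the class as a whole.

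**Figure D2:**
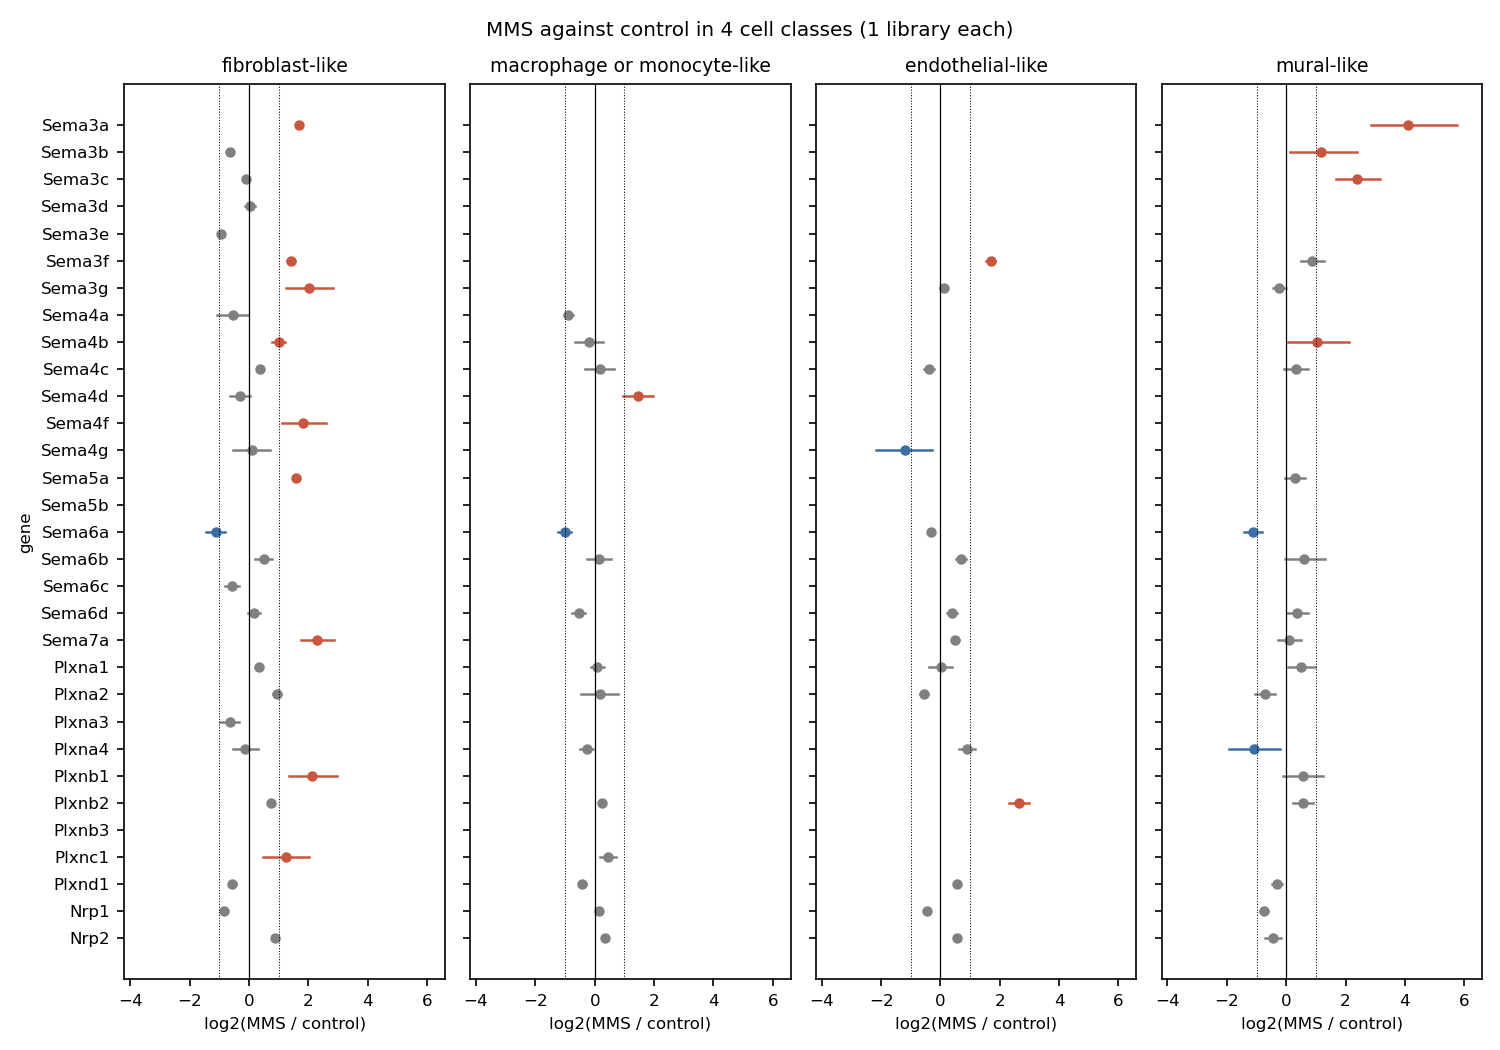
Log2 ratio of MMS to control (points) for members that reached 50 UMIs in the class with the libraries summed, with 95% intervals for counting error (lines). Red points are 2-fold or more higher in MMS, blue points 2-fold or more lower, gray points between; dotted lines mark 2-fold. Sema3a is at 1.69 in fibroblast-like cells and at 4.11 in mural-like cells, and Plxnb2 is at 2.64 in endothelial-like cells.

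The fibroblast-like classes of the 2 libraries differed in makeup. Lining-like cells, named from Prg4 and other markers of the layer that faces the joint space, were 238 of 3212 control cells (7.41%) and 485 of 1346 MMS cells (36.03%). Sublining-like cells, of the tissue beneath, were 2712 control cells (84.4%) and 389 MMS cells (28.9%), and the rest stayed unnamed. Summed lining markers were at 13890 CPM in the control class and 67610 CPM in the MMS class.

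Sema3a and Sema5a were held by the lining-like cells in both libraries. Sema3a was at 276 CPM in control and 240 CPM in MMS lining-like cells (log2 -0.20, -0.29 to -0.12), against 2.67 and 4.77 CPM in sublining-like cells. Sema5a was at 224 and 203 CPM in lining-like cells (-0.14, -0.24 to -0.05), against 8.61 and 11.1 CPM in sublining-like cells. Both ligands were thus a little lower in MMS with the lining-like cells pooled, the opposite of the whole class. Within sub-clusters 9 and 10, which make up these cells, Sema3a was higher in MMS, as given below. The log2 ratio of Sema5a in lining-like cells was above 0 with doublets kept (0.15) and at cluster resolution 2.0 (0.01). The named layers were also weighted equally, which leaves out the unnamed cells, 262 control and 472 MMS (35.07% of the MMS class). The log2 ratio was then -0.19 for Sema3a, -0.12 for Sema5a and -0.14 for Sema3f, and it was 0.11 for Sema4b and -0.28 for Sema6a. These values thus cover fewer cells than the class ratios. The count of higher members was then 4 of 29 (Sema3g, Sema4f, Sema7a and Plxnb1), against 4.79% of all genes, and that of lower members 2 (Sema3d and Sema3e), against 4.42%. None of those 4 higher members reached 50 UMIs in either layer. In control lining-like cells Sema3g had 1 UMI, Sema4f and Plxnb1 2 each and Sema7a 3. Layer names also moved with the doublet step: with doublets kept, 121 control and 344 MMS cells were lining-like, and Sema3a there was at 75.4 and 49.8 CPM.

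Sema3c, Sema3d and Sema3e were also higher in lining-like than in sublining-like control cells. At cluster resolution 2.0 the order of Sema3e was reversed, at 29.0 CPM in lining-like and 42.9 CPM in sublining-like control cells. Sema3c and Sema3d kept their order there. Sema3c was at 469 CPM in control and 289 CPM in MMS lining-like cells (log2 -0.70, -0.77 to -0.63) and at 178 and 127 CPM in sublining-like cells. Sema3e was at 137 and 52.0 CPM in lining-like cells (-1.40, -1.54 to -1.26), and Sema3d, which acts through neuropilins, at 66.5 and 23.6 CPM (-1.50, -1.70 to -1.29). These were the 2 of 19 members with at least 50 UMIs that were 2-fold or more lower in lining-like cells, where 3.22% of all 10905 genes were. Both calls were lost at cluster resolution 2.0, where Sema3e was at 0.01 and Sema3d at -0.34 and control Sema3d at 8.95 CPM, and with doublets kept, at 0.14 and -0.51. No member was 2-fold or more higher there, where 2.99% of all genes were.

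Sema3f was at 68.8 and 46.3 CPM in lining-like cells (-0.57, -0.75 to -0.39) but at 4.32 and 19.8 CPM in sublining-like cells (2.20, 1.88 to 2.52). Most MMS sublining-like cells were in sub-cluster 7 of the fibroblast-like cells (21 control and 306 MMS cells). Within that sub-cluster Sema3f was not higher in MMS, as given below. Sema3f was the 1 member of 24 that was 2-fold or more higher in sublining-like cells, against 5.46% of all 12341 genes. The 1 lower member was Sema4d, a membrane ligand of Plxnb1 known from lymphocytes, at 3.61 and 1.35 CPM (-1.43, -2.46 to -0.54), against 4.14% of all genes. Sema4c, a ligand of Plxnb2, was at 95.5 and 81.5 CPM in lining-like and 35.2 and 32.8 CPM in sublining-like cells.

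Nrp1 and Plxnd1 were distributed the other way. Nrp1 was at 137 and 148 CPM in sublining-like cells and at 41.8 and 22.4 CPM in lining-like cells of the control and MMS libraries. Plxnd1, the receptor of Sema3e and partner of Nrp1, was at 37.3 and 41.9 CPM in sublining-like and 12.8 and 11.6 CPM in lining-like cells. Within sublining-like cells the log2 ratio of Nrp1 was 0.11 (0.02 to 0.20), and over 7 alternative filters and clusterings it lay between -0.35 and 0.29, below 0 in all but resolution 0.5. Other receptors did not follow them: Plxnb2 was higher in lining-like cells, at 98.5 and 130 CPM in lining-like and 62.6 and 87.4 CPM in sublining-like cells.

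**Figure D3:**
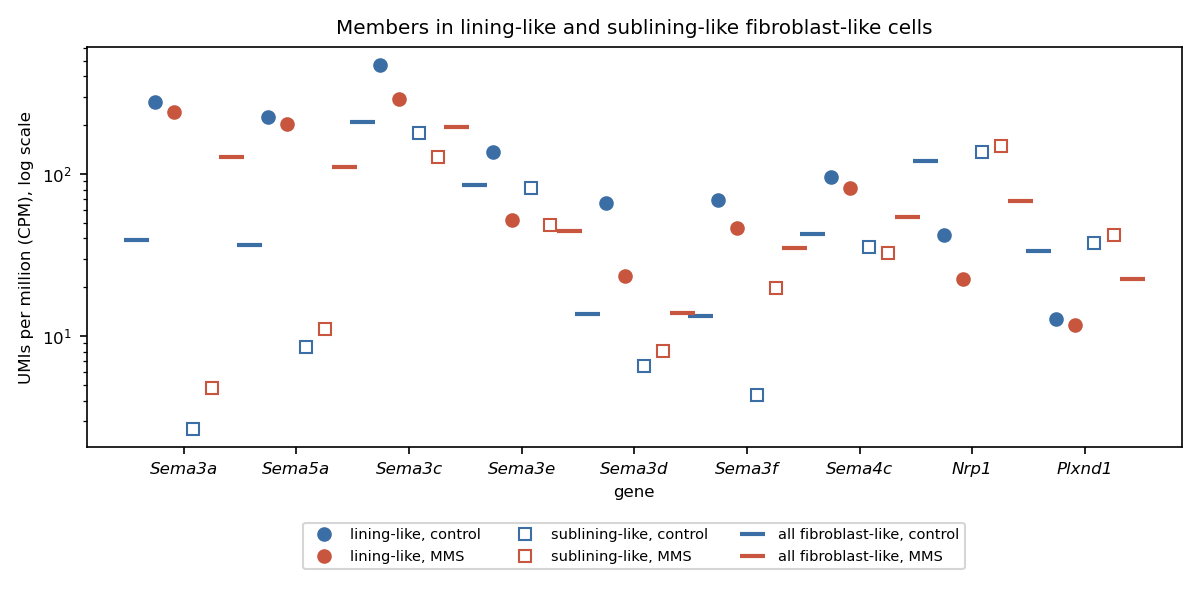
Level (CPM, log scale) of 9 members in lining-like cells (filled circles), sublining-like cells (open squares) and all fibroblast-like cells (dashes), control in blue and MMS in red. For Sema3a and Sema5a the circles of both libraries lie above 200 CPM and the squares below 12 CPM, while the dashes lie between them.

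Most sub-clusters of fibroblast-like cells came largely from 1 library, so that such a sub-cluster may stand for its library and not for a cell type. Most control lining-like cells were in sub-cluster 10 (216 control and 20 MMS cells) and most MMS lining-like cells in sub-cluster 9 (22 and 465). With both libraries summed, Sema3a was at 304 CPM in sub-cluster 10 and 231 CPM in sub-cluster 9, and Sema5a at 232 and 200 CPM. Within sub-cluster 9 Sema3a was at 140 CPM in the 22 control cells and 234 CPM in the MMS cells, and within sub-cluster 10 at 295 CPM and, in 20 MMS cells, 378 CPM. The direction within the lining-like cells thus depends on whether these sub-clusters are pooled.

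Sema3e was most concentrated in sub-cluster 5, led by Slurp1 and Ltbp2, at 461 CPM in 230 control cells and 227 CPM in 11 MMS cells. Sema3c there was at 549 CPM with both libraries summed. Sema3e was itself among its 10 leading genes, although no member was used for clustering. Sema3b, a class 3 ligand of neuropilins, was at 90.5 CPM in sub-cluster 4, led by Pi16 and Dpp4, and between 14.3 and 41.8 CPM in the other sub-clusters with 50 or more cells.

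The MMS library brought sub-clusters that held other members. Sub-cluster 12, led by Saa3 (8 control and 171 MMS cells), had Plxna2, a receptor of class 6 semaphorins, at 81.6 CPM and Plxnb2 at 121 CPM. Sub-cluster 13, led by Mmp13 and Lrrc15 (6 and 194 cells), had Nrp2 at 86.7 CPM and Sema7a at 13.2 CPM. Sublining-like MMS cells were mostly sub-cluster 7, led by Mmp3 (21 and 306 cells), where Sema3f was at 23.8 CPM in control and 20.8 CPM in MMS cells. Sub-cluster 11, led by endothelial genes such as Cdh5, had Sema3g at 23.9 CPM and Sema7a at 25.4 CPM. Without this and 2 other sub-clusters led by genes of other classes, the log2 ratio was 1.95 for Sema3g and 2.76 for Sema7a, and 8 of 28 members were higher, against 6.95% of all genes.

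**Figure D4:**
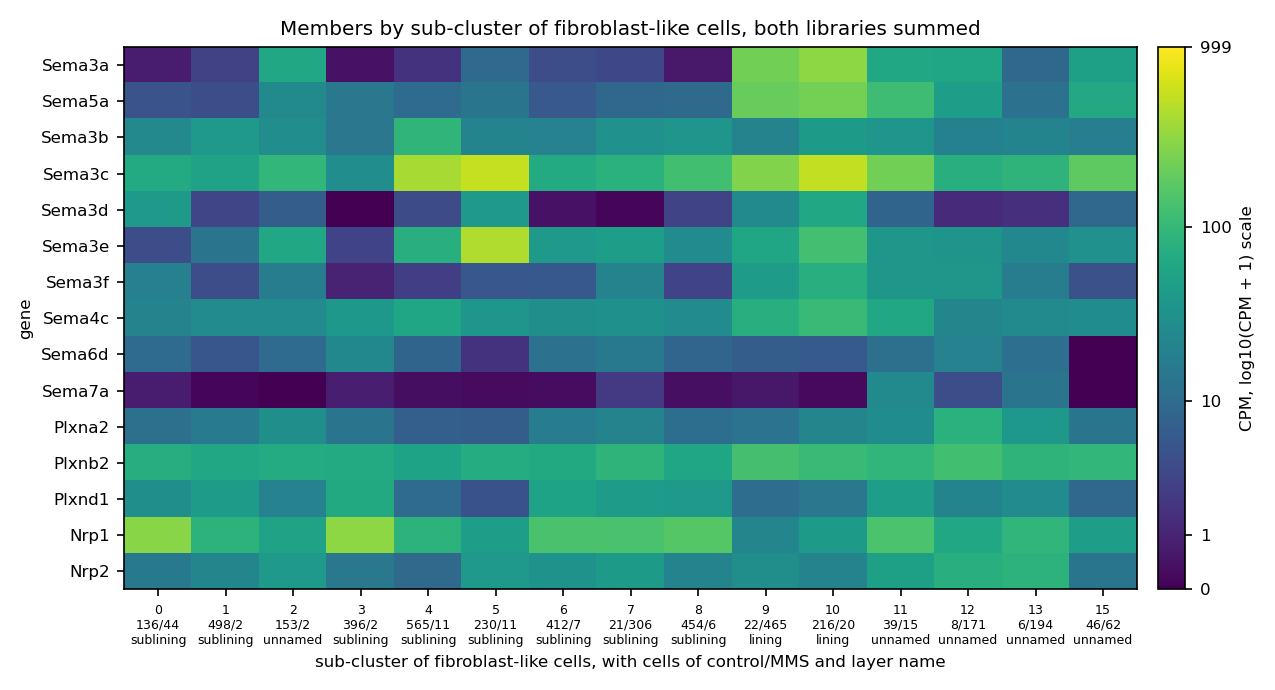
Level of 15 members in the sub-clusters of fibroblast-like cells with at least 50 cells, both libraries summed, on a log10(CPM + 1) scale. Labels give the sub-cluster, its control and MMS cells and its layer name; Sema3a and Sema5a are brightest in sub-clusters 9 and 10, Sema3e in 5, Plxna2 in 12 and Nrp1 in 3, at 306 CPM.

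Immediate early genes, which stress and tissue digestion can raise, were lower in MMS fibroblast-like cells: 12 of 15 were 2-fold or more lower, with a median log2 ratio of -1.31 over the 15. Their part in the ratios of members was not tested. Of 27 measured genes of plexin signalling, 1 was higher and 1 lower by 2-fold. Mical2, an enzyme that oxidizes actin, was at 4.71 and 17.5 CPM (log2 1.89, 1.67 to 2.12), and Rnd3, a small GTPase, at 106 and 51.4 CPM (-1.04, -1.12 to -0.96). Of 8 co-receptors, Chl1, an adhesion molecule that takes part in Sema3a signalling, was at 47.3 and 104 CPM (1.14, 1.06 to 1.21). Cd72, a receptor of Sema4d on B cells, was lower at 1.93 and 0.858 CPM (-1.17, -1.80 to -0.57).

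Of the vascular endothelial growth factors and their receptors, 3 of 7 measured genes were 2-fold or more lower in the MMS class and 0 higher. Vegfa, a ligand of Nrp1, was at 107 CPM in the control and 37.6 CPM in the MMS library (log2 -1.51, -1.59 to -1.42), and Pgf, or placental growth factor, at 11.9 and 1.33 CPM (-3.16, -3.62 to -2.74). Within 2-fold, Vegfd was at 29.9 and 48.1 CPM (0.69, 0.58 to 0.79), Vegfb at 19.9 and 26.95 CPM (0.43, 0.30 to 0.56) and Vegfc at 23.5 and 12.8 CPM (-0.87, -1.03 to -0.71), so that the growth factors did not share a direction. The third lower gene, Kdr, an endothelial receptor, was at 3.47 and 1.58 CPM in fibroblast-like cells and at 1332 and 847 CPM in endothelial-like cells. The part of free RNA from endothelial cells in such low levels was not tested.

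In macrophage or monocyte-like cells the receptors Plxnb2, Nrp1 and Nrp2 had high levels in both libraries and differed by less than 1.3-fold in the class as a whole. Sema4d was higher and Sema6a lower in MMS. Of 15 members with at least 50 UMIs, 1 was higher, where 2.21% of all 10752 genes were, and 1 was lower, again with 2.21% of all. The median log2 ratio was 0.15 over the members and 0.02 over all genes. The other 16 members were below the minimum, among them every class 3 semaphorin.

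Plxnb2 was at 255 CPM in the control and 305 CPM in the MMS library (log2 0.26, 0.18 to 0.33), Nrp1 at 233 and 258 CPM (0.15, 0.07 to 0.23) and Nrp2 at 170 and 218 CPM (0.36, 0.27 to 0.45). Sema4d was at 3.68 and 10.0 CPM (1.45, 0.95 to 1.96). Sema6a was at 53.7 and 26.7 CPM (-1.01, -1.23 to -0.80). Sema4a, a class 4 semaphorin of myeloid and T cells, was at 96.8 and 52.2 CPM (-0.89, -1.05 to -0.74), which falls short of 2-fold.

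The 3 clusters of the class differed in these members and in their share of each library. Cluster 11, led by Vsig4 and Trem2, held 578 control and 437 MMS cells. Cluster 13, led by Cd209f and Pf4, held 462 and 55, and cluster 17, led by Retnla and Ccr2, held 156 and 58. Sema4a was at 192 CPM in control and 205 CPM in MMS cells of cluster 13 (log2 0.10, -0.19 to 0.37), at 34.7 and 33.3 CPM in cluster 11 (-0.06, -0.32 to 0.20) and at 96.7 and 94.5 CPM in cluster 17 (-0.03, -0.40 to 0.32). In none of the 3 clusters did the interval of Sema4a reach the log2 ratio of -0.89 that the whole class showed, and cluster 13, where Sema4a was highest, held 462 of 1196 control and 55 of 550 MMS cells.

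Sema6a was lower in MMS within both clusters that held it, at 68.9 and 30.7 CPM in cluster 11 (log2 -1.17, -1.40 to -0.93) and 57.6 and 16.9 CPM in cluster 13 (-1.77, -2.84 to -0.87). Sema4d was mostly in cluster 17, at 16.7 and 59.1 CPM (1.82, 1.23 to 2.42). Plxnd1 was at 303 and 284 CPM in cluster 17 and 41.8 and 57.0 CPM in cluster 11. Plxna4, a receptor of Sema6a, was at 55.3 and 34.3 CPM in cluster 11 (-0.69, -0.92 to -0.46). The log2 ratios of Plxnb2 in clusters 11, 13 and 17 were -0.04, 0.40 and 0.66. Those of Nrp1 were 0.03, 0.71 and 0.47, and those of Nrp2 were 0.39, 0.15 and -0.37. With the clusters weighted equally, Sema6a had a log2 ratio of -1.33 and Sema4d of 1.88.

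Among 7 measured co-receptors of this class, Cd72 was at 12.4 and 30.6 CPM (log2 1.30, 1.03 to 1.58) and L1cam, an adhesion molecule of the Sema3a receptor complex, at 6.46 and 15.3 CPM (1.24, 0.86 to 1.63). Vegfa was at 2.03 and 4.06 CPM (1.003, 0.26 to 1.75). Farp2, an exchange factor downstream of Sema3a, was at 3.36 and 1.43 CPM (-1.23, -2.27 to -0.31), the 1 effector of 24 that was lower. Of 15 immediate early genes 2 were 2-fold or more lower, Hspa1a and Hspa1b, with a median log2 ratio of -0.05 over the 15.

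In endothelial-like cells Plxnb2 and Sema3f were higher in MMS, and Sema4g, a class 4 semaphorin, was lower at a few CPM. Nrp1 and Plxnd1, a receptor pair through which class 3 semaphorins act on vessels, were each higher in this class than in the other 3 main classes in both libraries. Of 15 members with at least 50 UMIs, 2 were higher, where 5.83% of all 10609 genes were, and 1 was lower, where 2.62% of all were. The median log2 ratio was 0.40 over the members and 0.03 over all genes. The other 16 members were below the minimum.

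Plxnb2 was at 10.7 CPM in the control and 66.7 CPM in the MMS library, a log2 ratio of 2.64 (2.31 to 2.99). Sema3f was at 60.4 and 195 CPM (1.69, 1.54 to 1.85). Sema4g was at 4.97 and 2.19 CPM (-1.19, -2.18 to -0.28), from 41 and 14 UMIs.

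Nrp1 was at 874 and 644 CPM (log2 -0.44, -0.50 to -0.39), and Plxnd1 at 334 and 487 CPM (0.54, 0.47 to 0.62). Sema6a was at 345 and 279 CPM (-0.30, -0.39 to -0.22), and Nrp2, the receptor of Sema3f, at 270 and 394 CPM (0.55, 0.46 to 0.63). The 2 neuropilins thus differed in direction in the class as a whole, and their levels by cluster are given below. Among the rest, Plxna4 was highest in ratio, at 26.3 and 48.9 CPM (0.89, 0.64 to 1.15), and Plxna2 lowest, at 189 and 128 CPM (-0.56, -0.68 to -0.43).

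Endothelial-like cells fell into 5 clusters in different numbers. Clusters 0, 1 and 2, led by capillary genes such as Gpihbp1 and Btnl9, held 931, 474 and 340 control cells and 163, 57 and 93 MMS cells, while Ccl21a, a lymphatic gene, also led cluster 1. Cluster 4, led by Selp and Vwf, genes of venules, held 73 and 220, and cluster 16, led by Podxl and Sox17, an arterial transcription factor, held 142 and 174. Most control cells were in clusters 0, 1 and 2, and most MMS cells were in clusters 4, 16 and 0.

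Plxnb2 was concentrated in cluster 4 in both libraries, at 64.6 CPM in control and 115 CPM in MMS cells (log2 0.83, 0.39 to 1.30). In cluster 16 it was at 13.6 and 44.2 CPM (1.70, 0.84 to 2.67), and in cluster 0 at 4.32 and 6.19 CPM. In cluster 2 it was at 2.86 and 2.49 CPM, from 4 and 1 UMIs, and in cluster 1 at 6.03 and 24.1 CPM, from 6 and 3 UMIs. Its ratio within the cluster that held most of it was therefore smaller than in the whole class. With the 5 clusters weighted equally, the log2 ratio was 1.07 for Plxnb2 and -0.02 for Sema4g. The value for Plxnb2 includes the cluster 1 level from 3 MMS UMIs.

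Sema3f was higher in MMS in each of the 5 clusters. It was at 45.3 and 117 CPM in cluster 0 (log2 1.37, 1.03 to 1.69), 44.3 and 124 CPM in cluster 2 (1.49, 0.92 to 2.05) and 110 and 217 CPM in cluster 4 (0.98, 0.65 to 1.34). In cluster 16 it was at 143 and 229 CPM (0.68, 0.40 to 0.97), and in cluster 1, from 31 and 16 UMIs, at 31.2 and 128 CPM. With the clusters weighted equally its log2 ratio was 1.13.

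Sema3g and Sema7a marked a different set of endothelial-like cells. Sema3g was at 422 and 359 CPM in cluster 16 and 313 and 423 CPM in cluster 2, but at 12.4 and 11.3 CPM in cluster 4. Sema7a was at 313 and 360 CPM in cluster 16, 197 and 343 CPM in cluster 2 and 24.7 and 53.2 CPM in cluster 4. Both were among the 10 leading genes of cluster 16. In cluster 0, Sema3g was at 78.2 and 159 CPM (log2 1.03, 0.76 to 1.29), although in the whole class it was at 152 and 165 CPM (0.11, -0.01 to 0.23). Nrp2 was at 436 and 504 CPM in cluster 4 and 121 and 203 CPM in cluster 16. Nrp1 was at 967 and 1026 CPM in cluster 0 (log2 0.08, -0.01 to 0.18) and 824 and 863 CPM in cluster 2 (0.07, -0.11 to 0.24). It was at 492 and 432 CPM in cluster 4 (-0.19, -0.36 to -0.01) and 836 and 696 CPM in cluster 16 (-0.27, -0.39 to -0.14). In cluster 1 Nrp1 was at 870 and 666 CPM (-0.39, -0.73 to -0.06).

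**Figure D5:**
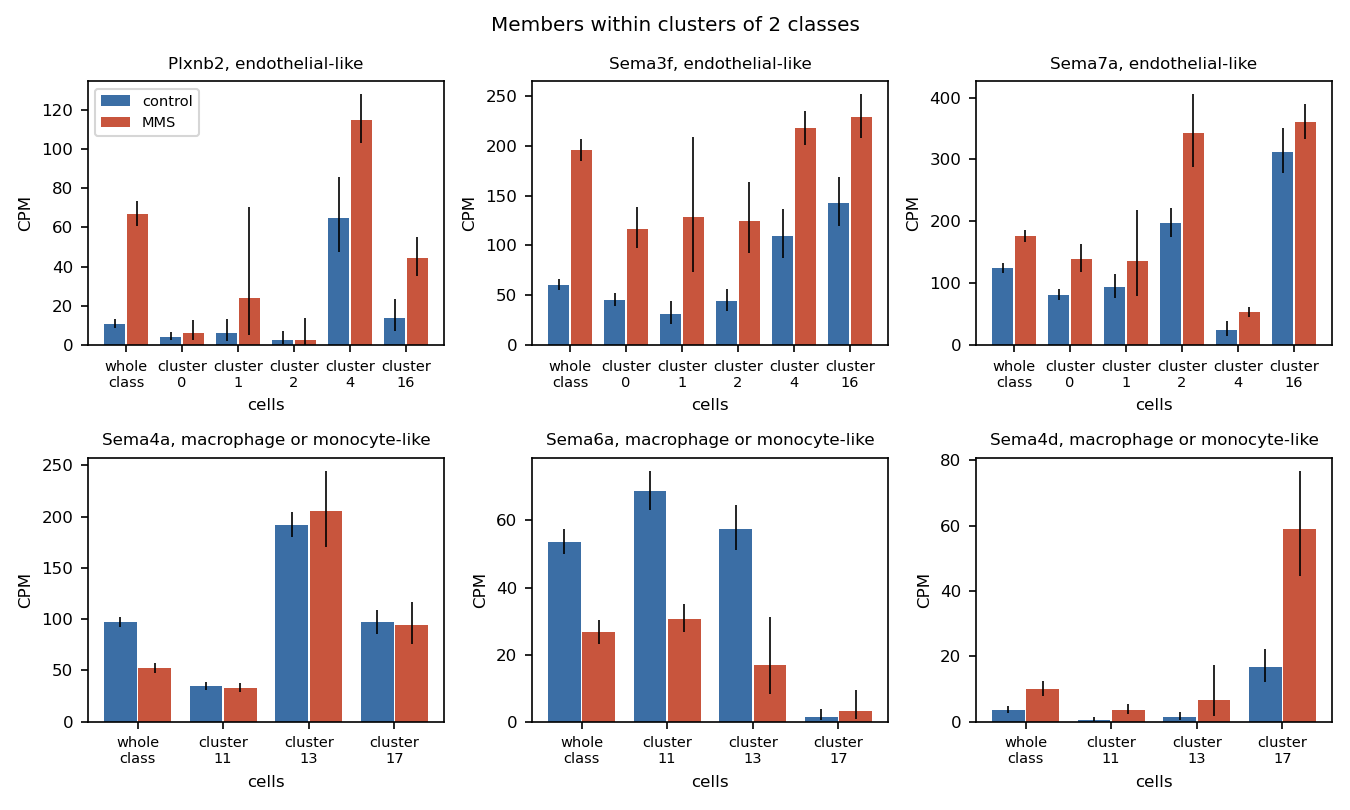
Level (CPM, bars from 0) of 6 members in a whole class and in its clusters, control in blue and MMS in red, with 95% Poisson intervals for counting error. Sema4a differs between libraries in the whole class (96.8 and 52.2 CPM) and hardly within clusters 11, 13 and 17, whereas Sema3f is higher in MMS in each endothelial-like cluster.

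Lymphatic endothelial cells were too few to compare, with 4 control and 3 MMS cells that carried lymphatic markers. All 14 Sema3d UMIs of control endothelial-like cells came from those 4 cells. Of the measured co-receptors and effectors, Met, the receptor that associates with B plexins, was at 2.18 and 13.9 CPM in the whole class (log2 2.67, 1.93 to 3.49) and at 11.0 and 20.6 CPM in cluster 4, where Plxnb2 was highest (0.90, -0.17 to 2.18). Rnd1, a GTPase that binds plexins, was at 21.1 and 56.5 CPM (1.42, 1.16 to 1.69), but in cluster 0 it was at 20.1 CPM in control cells and 2.65 CPM, from 3 UMIs, in MMS cells. Dpysl3, of the collapsin response mediators, was at 30.8 and 92.1 CPM in the whole class (1.58, 1.37 to 1.80). In cluster 0 Dpysl3 was at 27.6 and 23.0 CPM (-0.26) and in cluster 4 at 87.9 and 131 CPM (0.58). In cluster 16 it was at 26.2 and 95.6 CPM (1.865). Farp2 was at 4.85 and 2.34 CPM (-1.05, -2.01 to -0.16). Of 15 immediate early genes 2 were 2-fold or more higher and 2 lower in this class, with a median log2 ratio of -0.32. The pathway genes named are 1 of 6 co-receptors and, with Rnd1 and Dpysl3 higher and Farp2 lower, 3 of 24 effectors.

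In mural-like cells Sema3a, Sema3c, Sema3b and Sema4b were 2-fold or more higher in MMS and Sema6a and Plxna4 lower. Markers of fibroblasts moved with them. The summed level of 10 fibroblast markers in mural-like cells was 4148 CPM in the control and 9030 CPM in the MMS library, and that of 7 lining markers 1551 and 24450 CPM, with none of either list at 0. Summed endothelial markers were at 2990 and 2021 CPM, against 7225 and 7783 CPM in endothelial-like cells. The part of endothelial RNA in the mural-like levels and ratios of members and pathway genes was not tested. Of 20 members with at least 50 UMIs, 4 were higher, where 5.23% of all 9181 genes were, and 2 lower, where 3.79% of all were.

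Sema3a was at 3.26 CPM in the control and 56.2 CPM in the MMS library (log2 4.11, 2.86 to 5.75), from 5 and 196 UMIs. Sema3c was at 11.8 and 60.8 CPM (2.37, 1.68 to 3.15), Sema3b at 5.87 and 13.2 CPM (1.17, 0.12 to 2.38) and Sema4b at 7.18 and 14.6 CPM (1.03, 0.07 to 2.12). Leaving out mural-like cells with over 10000 CPM of Prg4 and Col1a1 together, 3 control and 35 MMS cells, turned the log2 ratio of Sema3a to -2.63 and of Sema3b to -0.89 and left Sema3c at 0.37. Then 2 of 15 members were higher, against 3.30% of all genes, and 0 lower, against 2.41%. Control mural-like cells held only 5 Sema3a and 9 Sema3b UMIs before this cut, so the size of the ratios after it was not read. The ratios of Sema3a and Sema3b in mural-like cells thus depended on whether the cells with high Prg4 and Col1a1 were kept.

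Sema6a was at 116 and 53.6 CPM (log2 -1.11, -1.41 to -0.80), and Plxna4 at 15.7 and 7.46 CPM (-1.07, -1.93 to -0.21). Without the cells named above the ratios were -0.66 and -0.57. Nrp1 was at 491 and 295 CPM (-0.74, -0.88 to -0.60), Plxnd1 at 263 and 212 CPM (-0.31, -0.49 to -0.13), and Sema3g at 169 and 144 CPM (-0.23, -0.45 to -0.01). The median log2 ratio was 0.35 over the 20 members and -0.04 over all genes. Sema5b, a class 5 semaphorin of axon guidance, had 17 UMIs in each library in this class, at 11.1 and 4.87 CPM, out of 54 in all barcodes of both libraries.

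Of the pathway genes in mural-like cells, Pgf was at 10.4 and 37.9 CPM (log2 1.86, 1.11 to 2.71), Vegfd, a lymphatic growth factor, at 5.22 and 16.6 CPM (1.67, 0.60 to 2.95), Vegfc at 71.8 and 29.8 CPM (-1.27, -1.67 to -0.87) and Kdr at 415 and 174 CPM (-1.25, -1.42 to -1.09). Dpysl3 was at 33.9 and 97.8 CPM (1.53, 1.10 to 1.98) and Mical2 at 35.2 and 75.4 CPM (1.10, 0.67 to 1.55). These were 4 of 8 growth factor genes, 2 in each direction, and 2 of 24 effectors. Kdr is itself one of the endothelial markers, whose summed level in this class was lower in MMS. Vegfd was also measured in fibroblast-like cells, whose summed markers in mural-like cells were at 4148 CPM in control and 9030 CPM in MMS. The part of fibroblast RNA in the mural-like ratios of pathway genes was not tested. Of 15 immediate early genes 8 were 2-fold or more lower, with a median of -1.02, and their part in these ratios was not tested.

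Some members had high levels in smaller classes. In Schwann or glial-like cells, 9 in the control and 31 in the MMS library, Sema3b was at 598 CPM (45 UMIs) and 380 CPM (86 UMIs). Plxnb3, a plexin known from glia, had 9 and 22 UMIs there, out of 41 and 34 in all barcodes of the libraries. Plxnb1 had 7 and 21 UMIs, at 93.1 and 92.9 CPM. Fewer than 50 cells stand behind each of these levels.

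Leukocytes other than macrophages carried Sema4a, Sema4d and Plxnc1. In the 308 MMS neutrophil-like cells Sema4a was at 122 CPM, Sema4d at 49.0 CPM and Plxnc1 at 37.8 CPM, and the control library had 20 such cells. In 68 control T or NK-like cells Sema4a was at 144 CPM and Sema4d at 66.5 CPM. In 205 control dendritic-like cells Plxnd1 was at 158 CPM, Sema4a at 79.7 CPM and Plxnc1 at 30.1 CPM. Tenocyte-like MMS cells had Sema3c at 261 CPM, Sema3e at 60.2 CPM and Sema4f at 14.4 CPM, and the 175 Sema4f UMIs of that class were more than the 59 of all MMS fibroblast-like cells. Adipocyte-like MMS cells, 65 in number, had Plxna2 at 108 CPM and Sema5a at 89.7 CPM.

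The remaining members are given by class. Plxna1, a receptor of class 3 and class 6 semaphorins, was between 15.6 and 49.9 CPM in the 4 main classes. Sema6d, a ligand of Plxna1, was highest in endothelial-like cells, at 71.8 and 94.6 CPM, and Sema6b, a further class 6 ligand, at 70.1 and 113 CPM. Sema6c and Plxna3 stayed under 9 CPM in the 4 main classes. None of these members reached 2-fold in a class where it had 50 UMIs.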

How the data were processed

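Single cells of digested synovium were sequenced with the 10x Genomics 3' v3.1 kit, 1 library per group. The deposited matrices hold raw UMI counts for each gene and barcode. Per the file headers they were made with Cell Ranger 5.0.0, whereas version 2.0.0 and the build mm10 stand in the submitters' processing notes. UMIs near the 3' end are not scaled by gene length. CPM compares a gene between classes and libraries. Between genes it served to choose which members to give and does not rank them by abundance.

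Barcodes under 1000 UMIs or 500 genes, or with over 10% of UMIs from mitochondrial genes, were dropped, and doublets called by scrublet were removed (184 control, 106 MMS) with scanpy 1.11.5. Cells were clustered (2000 variable genes without members and pathway genes, 30 components, 15 neighbours, Leiden resolution 1.0). Clusters were named from marker lists, and the thresholds for naming classes and layers were set after the clusters were seen. Names rebuilt in this way may differ from the authors' own.

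UMIs were summed per class and library. Ratios of CPM carry exact binomial 95% intervals, and levels carry exact Poisson ones. Both cover counting error only, and cells are not replicates. A gene at 0 took a floor of 3 counts. Ratios and intervals were tested on simulated data. Reported in full were members past 2-fold in a main class and the 3 of highest CPM in either library, and of the pathway lists up to 4 genes past 2-fold per class and direction. Members, lists and rules were chosen with earlier results of these data known. Other members are given where a level by layer, cluster or smaller class was of interest, chosen after values were seen. Alternatives covered cell filters, doublets, resolution, variable genes, scaling, cell weighting, low counts and the cell with most UMIs. Sets of cells left out and equal weighting of clusters were added after seeing the data. Gene coordinates are from GENCODE M21 (GRCm38).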

Additional observations from a re-analysis of the deposited data

How the results depend on the processing

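Of 21 ratios of members past 2-fold in a class, each recomputed under 14 to 16 alternatives (314 values in all), 308 kept their direction and 6 reversed. The 6 were Sema3a (-0.19), Sema3f (-0.14) and Sema5a (-0.12) in fibroblast-like cells with the layers weighted equally, Sema3a (-2.63) and Sema3b (-0.89) in mural-like cells without cells with over 10000 CPM of Prg4 and Col1a1, and Sema3b in mural-like cells with each cell weighted equally (-0.23). The equal weighting of layers leaves out the unnamed cells. Control mural-like cells held only 5 Sema3a and 9 Sema3b UMIs, so the size of those reversals was not read. Sema4f, Sema7a and Plxnb1 in fibroblast-like cells and Sema3f and Plxnb2 in endothelial-like cells stayed past 2-fold in the same direction under every alternative run for them. With the layers weighted equally, the first 3 of these include sums of 2 or 3 UMIs in control lining-like cells. With the clusters weighted equally, Plxnb2 includes a level from 3 MMS UMIs in cluster 1.

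Counts of members past 2-fold were small and moved easily, and the cause was not tested. The number of members tested and the share over all genes can also change with the setting. They are not given beside the counts in this paragraph and the next. These counts therefore show how far the calls moved, and not whether members differed from other genes. In fibroblast-like cells the higher count, 9, was 4 with the layers weighted equally and between 6 and 11 under the other alternatives. The lower count there, 1, was 0 at a mitochondrial limit of 5%, 4 at resolution 0.5 and 2 at resolution 2.0, with tenocyte-like cells added and with the layers weighted equally. In macrophage or monocyte-like cells the higher count, 1, was 2 at the 5% limit, 4 with doublets kept, 0 at resolution 0.5, 0 with members among the variable genes, 3 with a minimum of 10 UMIs and 5 with 1 UMI in each library. The lower count there, 1, was 2 at the 5% limit and with either lower minimum, and 0 at the 20% limit, with doublets kept, at resolution 0.5, with members among the variable genes and with cells weighted equally. In endothelial-like cells the higher count, 2, was 5 with a minimum of 10 UMIs and 7 with 1 UMI in each library. The lower count there, 1, was 3 with either lower minimum and 0 with a minimum of 2000 UMIs per cell, at the 5% limit, and with cells or clusters weighted equally. In mural-like cells the higher count, 4, was 2 at the 20% limit, with doublets kept and without the cells with high Prg4 and Col1a1, and 7 with either lower minimum. The lower count there, 2, was 1 with a minimum of 500 UMIs per cell, at the 20% limit and with doublets kept, and 0 with a minimum of 2000 UMIs per cell, at the 5% limit, with cells weighted equally and without the cells with high Prg4 and Col1a1.

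In lining-like cells the higher count, 0, was 2 with doublets kept and 1 at resolution 2.0, and the lower count, 2, was 0 with doublets kept and, with Sema3b and Nrp1 in place of Sema3d and Sema3e, 2 at resolution 2.0. With doublets kept no sublining-like comparison was had. In sublining-like cells the higher count, 1, was 5 with a minimum of 500 UMIs per cell, 2 with 2000, 7 at the 5% limit, 6 at the 20% limit, 3 at resolution 0.5, 2 at resolution 2.0 and 7 with members among the variable genes, and the lower count, 1, was 2 at the 20% limit and with members among the variable genes. Over the 8 reclusterings the log2 ratio of Sema3a in lining-like cells was between -0.60 and -0.08. That of Sema5a lay between -0.30 and 0.15 and was above 0 with doublets kept and, at 0.01, at resolution 2.0. With doublets kept those of Sema3c (0.54), Sema3e (0.14), Sema3f (0.47) and Nrp1 (0.53) were above 0 too, and that of Sema3e was 0.01 at resolution 2.0.

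No paired analysis was possible because each group is 1 library. With no replicate, differences between animals, knees or library preparations cannot be told apart from those between control and MMS. Members at a few CPM rest on few UMIs. A level or ratio from about 3 counts or fewer in a library should not be read as a difference.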
